A study of Mus musculus with 6 samples.

Results

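Tafa1, Uts2b, Ostn, Syn2, Syp, Maoa and B3galt5 encode secreted, synaptic or enzyme proteins, and they were chosen by their measured values, as genes of these kinds whose intensity had been noted as higher on the Aire KO than on the Aire WT arrays of these very mice. They are 7 of 19938 genes measured. Each was read from its 1-symbol probe set of highest mean, and each has only 1 such probe set. The KO-minus-WT values of the 7 genes therefore chose them and are given as a description, with no test. The choice followed no numeric threshold, so there are no genes just inside or just outside one.

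The samples were medullary epithelial cells of the thymus, taken from mice aged 4 to 6 weeks and sorted for high MHC class II, an intermediate level of Ly51 and no CD45. The KO group was 3 Aire-/- mice and the WT group 3 Aire WT mice, all of the (B6xNOD)F1 background, with 1 array per mouse. RNA was amplified before labelling and hybridised to a whole-transcript mouse array, and the unit below is log2 RMA intensity. No probe set's level is set against another's, and precision is limited by having 3 arrays a group. Where the intensities of a marker list are summed, its brightest probe sets weigh most, so a sum can hide changes of dimmer genes.

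Aire is a transcriptional regulator through which these epithelial cells express genes of many other organs and display their proteins to developing T cells. Loss of Aire is best known for lowering such genes, so genes with a higher signal without it are the less usual direction. Many genes of secreted neuropeptides, hormones and synaptic vesicle proteins belong to the tissue-restricted genes that medullary epithelium can transcribe.

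The array medians lay between 93.5 and 97.4 intensity units in KO and between 92.9 and 98.2 in WT. Aire's own probe set averaged 12.41 ± 0.02 on the arrays labelled KO and 11.97 ± 0.04 on the WT arrays (SD, n = 3 each). The deleted part of Aire is not named in the labels, so this probe set does not check the genotype, and KO below means labelled Aire KO. Of 17 tested markers of medullary epithelium, Aire among them, 5 were called higher and 3 lower by limma, and their summed intensity was 54220 to 56790 in KO and 50590 to 51990 in WT. Cd86, a costimulatory molecule, was higher by 0.97, while the keratin genes Krt5 and Krt14 fell by 0.84 and 0.44 and Epcam by 0.37. Krt14 lost its call in 2 alternatives and Epcam in 3. The T cell markers summed to 981 to 1288 in KO and 1287 to 2109 in WT, and 2 of 9 tested were called lower and 0 higher by limma (0 higher also at an unadjusted p under 0.05). Among B cell markers 4 of 5 tested were called higher and 1 lower, with sums of 1811 to 2035 in KO and 1656 to 1938 in WT, while Cd79a, Ms4a1 and Ighm lay below the intensity filter. The B cell genes called higher were Cr2 by 1.03, Blk by 0.47, Pax5 by 0.31 and Cd79b by 0.24, the last 2 of which lost their call in 4 and 7 of 15 alternatives. The 1 called lower, Fcer2a, fell by 0.66 (SE 0.11, limma adjusted p = 0.00086). For myeloid cells 2 of 9 tested were called higher and 3 lower, with sums of 3993 to 4052 in KO and 4039 to 4388 in WT. Adgre1 fell by 1.58, Itgam by 1.29 and Csf1r by 0.54, and every KO array of Adgre1 and Itgam lay below the filter. The 2 called higher were Zbtb46 by 0.44 and Cd68 by 0.32, and Cd68 lost its call in 7 alternatives. Lyz2, a bright gene that weighs on these sums, averaged 11.3 in both groups and was not called. Cortical epithelium markers gave 2 higher and 2 lower of 8 tested, and fibroblast and endothelial markers 1 and 1 of 10. Beside these marker counts, 12.0% of all tested genes were called higher in KO and 14.1% lower. The part of such cells in the values below was not tested. In bulk RNA fewer cells of a type and less RNA per cell cannot be told apart.

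**Figure D1:**
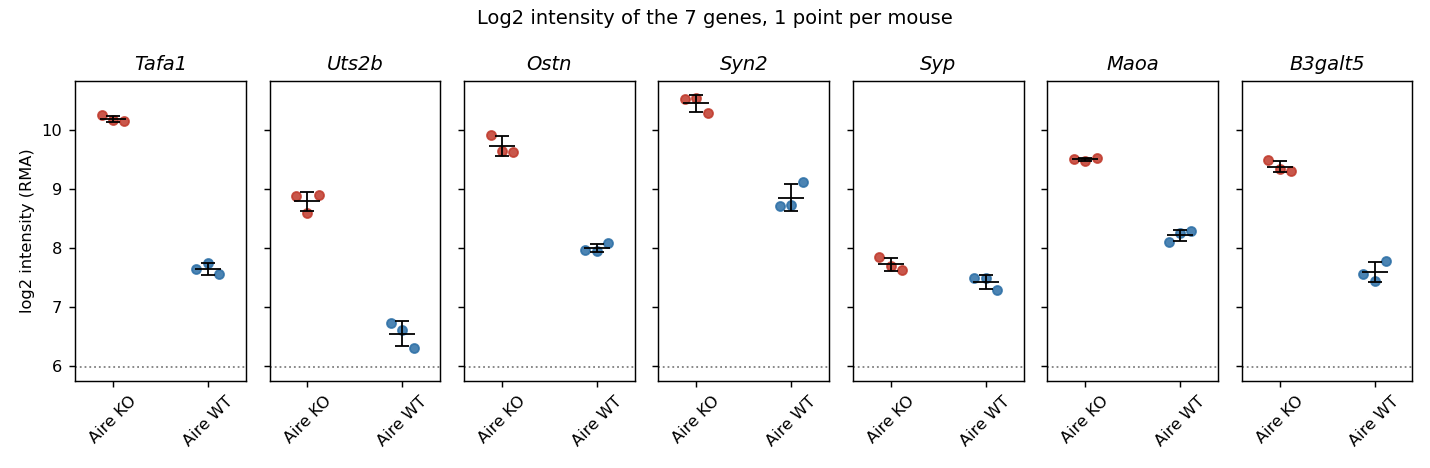
Log2 RMA intensity (y axis) of the 7 genes on the 3 Aire KO arrays (left, red) and the 3 Aire WT arrays (right, blue), 1 point per mouse, with the mean and SD as bars and the intensity filter of 5.97 as a dotted line. The KO points lie above the WT points for all 7 genes, with a gap of 2.40 for Tafa1 and 0.14 for Syp.

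For all 7 genes every KO array lay above every WT array, a separation found for 22.0% of the 13925 genes tested. By the adjusted limma test, 12.0% of tested genes were called higher in KO, 14.1% lower and 26.1% either way. The genes called higher in KO numbered 1676, and 1052 without KO replicate 1. Since this contrast chose the genes, nothing is read from their count against these shares. The differences spread widely, between 0.30 for Syp and 2.54 for Tafa1 on the log2 scale, with a median of 1.73 beside 0.02 over all tested genes. Within the groups the SDs ran from 0.03 to 0.17 in KO and from 0.07 to 0.22 in WT.

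Tafa1 encodes a small secreted chemokine-like protein of the brain. It measured 10.25, 10.16 and 10.16 in the KO mice, against 7.63, 7.75 and 7.56 in the WT mice. All KO arrays were high and the groups were far apart: the means of 10.19 ± 0.05 in KO and 7.65 ± 0.10 in WT (SD, n = 3 each) differed 5.83-fold, and the log2 difference of 2.54 was 25.8 times the larger SD. No other tested gene had a larger positive difference.

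Uts2b encodes urotensin II-related peptide, a vasoactive ligand of the urotensin receptor. Its log2 intensities were 8.88, 8.60 and 8.89 in KO, against 6.72, 6.60 and 6.31 in WT. The WT arrays sat not far above the filter of 5.97, where background compresses a fold. The means were 8.79 ± 0.17 in KO and 6.54 ± 0.21 in WT (SD, n = 3 each), 4.74-fold apart, and 1 tested gene had a larger positive difference.

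Ostn encodes osteocrin, also called musclin, a peptide of bone and muscle that binds the natriuretic peptide clearance receptor. It measured 9.92, 9.64 and 9.63 in KO, against 7.97, 7.94 and 8.08 in WT. The groups did not overlap, and the lowest KO array stood 1.55 above the highest WT array. The means of 9.73 ± 0.16 in KO and 8.0 ± 0.07 in WT (SD, n = 3 each) were 3.32-fold apart.

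RefSeq's promoter table for build GRCm38.p6 holds windows for 6 of the 7 genes, all but Ostn. The 250 bases before the annotated start of Tafa1 and of Uts2b are printed because these had the largest differences of the 7 genes, and each can be set beside the promoters of the synaptic genes further down. Capitals mark a match on either strand to TATAAA, the TATA box core, or GGGCGG, the core of a GC box.
Tafa1, chr6:96112904-96113153, plus strand: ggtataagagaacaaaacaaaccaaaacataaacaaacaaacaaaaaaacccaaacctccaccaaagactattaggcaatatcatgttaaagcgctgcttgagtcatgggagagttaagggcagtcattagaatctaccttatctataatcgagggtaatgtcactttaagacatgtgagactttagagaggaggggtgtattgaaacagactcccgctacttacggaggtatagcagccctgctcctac
Uts2b, chr16:27370240-27370489, minus strand: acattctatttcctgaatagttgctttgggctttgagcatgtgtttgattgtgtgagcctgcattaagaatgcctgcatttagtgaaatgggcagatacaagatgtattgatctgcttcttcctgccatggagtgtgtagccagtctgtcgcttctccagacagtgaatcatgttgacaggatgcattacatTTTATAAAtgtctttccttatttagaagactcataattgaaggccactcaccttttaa
Both windows are poor in G and C, at 40.8% for Tafa1 and 39.6% for Uts2b, against a median of 52.4% over 32851 promoter windows of the same length. They hold 4 and 1 CpG dinucleotides, where the median window holds 6. The 2 overlapping TATAAA matches of Uts2b, 1 on each strand, lie within 58 to 51 bases before the start, and 12.4% of all windows hold this motif. Tafa1's window has no match to either motif. A match is only a description of letters.

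Relatives and partners of the secreted proteins did not share the size of these differences. Of 7 tested genes of the Tafa family and its reported binding partners, 1 was called higher and 1 lower by limma, with a median log2 difference of 0.05, against that background. Tafa2 was higher by 0.28 (SE 0.09, limma adjusted p = 0.045), a call lost in 8 of the 15 alternatives. Without KO replicate 2 or 3, or without any 1 WT array, the count of higher genes was 0. Tafa3, Tafa4 and Tafa5 stood at 0.17, 0.05 and -0.03 and were not called. Neurexin 3 (Nrxn3), a presynaptic adhesion receptor, fell by 0.41 (SE 0.08, limma adjusted p = 0.0042), with all KO arrays below the filter, so it was tested through its WT arrays alone.

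Uts2, which encodes urotensin II itself, was too dim to test at 6.00 ± 0.19 in KO and 5.91 ± 0.19 in WT (SD, n = 3 each), and the receptor gene Uts2r was not called at -0.16. Npr3, the receptor that osteocrin binds, was too dim to test, with 5.71 ± 0.06 in KO and 5.46 ± 0.15 in WT (SD, n = 3 each). Of 9 tested genes of urotensin, natriuretic peptide and cyclic GMP signalling, 3 were called lower and 1 higher by limma, with a median of -0.16. Over all tested genes 14.1% were called lower and 12.0% higher. The natriuretic peptide receptor genes Npr1 and Npr2 were too dim to test. Nppa, which encodes atrial natriuretic peptide, fell by 0.88 (SE 0.11, limma adjusted p = 0.00012), and its arrays read 6.04, 6.18 and 6.22 in KO, against 7.10, 7.18 and 6.80 in WT. The groups did not overlap. Furin, a protease that cleaves many prohormones, fell by 0.70 and Pde5a, which degrades cyclic GMP, by 0.56. The guanylate cyclase gene Gucy1a1 was higher by 0.29, with all WT arrays below the filter, and the count of higher genes was 0 when KO replicate 2 or 3 or WT replicate 1 or 2 was left out, with limma adjusted p between 0.052 and 0.12 for Gucy1a1.

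**Figure D2:**
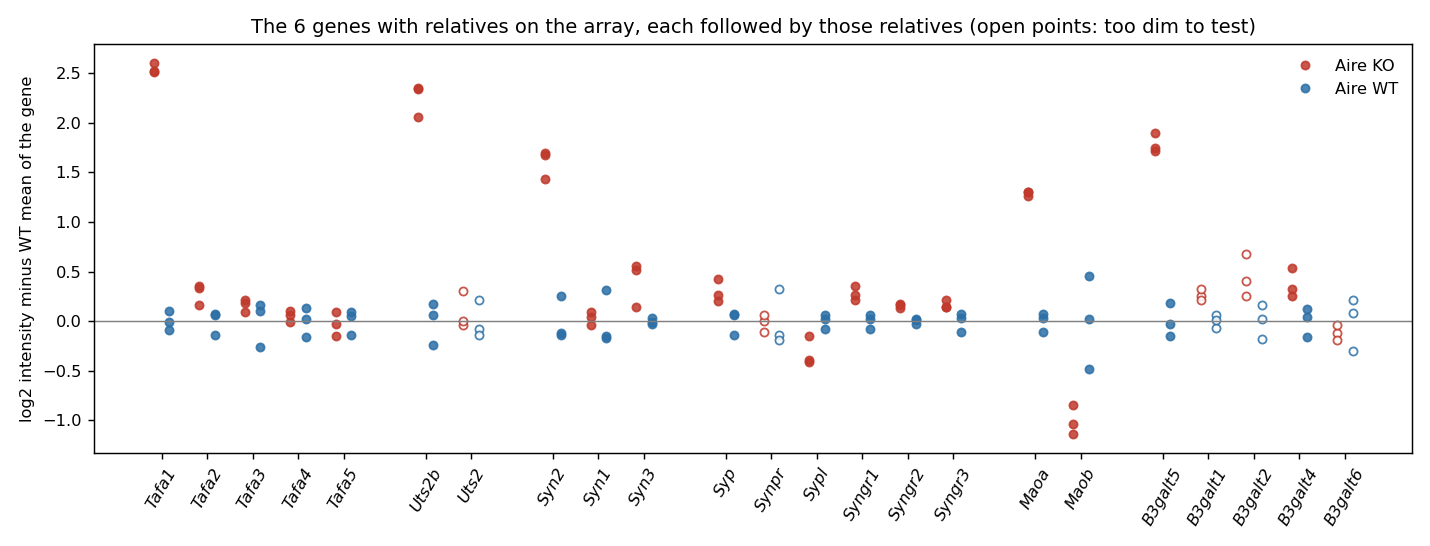
Log2 intensity minus the gene's WT mean (y axis) for 6 of the 7 genes, each followed by its relatives, with 1 point per array, KO (red) left of WT (blue), and open points for genes too dim to test. The KO points of Tafa1, Uts2b, Syn2, Maoa and B3galt5 lie well above 0, those of Syp lie near its relatives Syngr1 to Syngr3, and Maob lies below 0.

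Syn2 and Syp encode proteins of synaptic vesicles: synapsin II tethers vesicles to the cytoskeleton, and synaptophysin spans their membrane. Syn2 measured 10.53, 10.55 and 10.28 in KO, against 8.72, 8.73 and 9.11 in WT. WT replicate 3 was the highest of its group and still 1.17 below the lowest KO array. The means of 10.45 ± 0.15 in KO and 8.85 ± 0.22 in WT (SD, n = 3 each) were 3.03-fold apart.

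Syp had by far the smallest difference of the 7. It measured 7.85, 7.69 and 7.63 in KO, against 7.49, 7.50 and 7.29 in WT, so the lowest KO and the highest WT array were only 0.14 apart. The means were 7.72 ± 0.11 in KO and 7.42 ± 0.12 in WT (SD, n = 3 each), a 1.23-fold difference of 2.52 times the larger SD. A larger positive difference was seen for 1466 tested genes.

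The promoters of Syn2, at its first annotated start, and of Syp are shown to be set beside those of Tafa1 and Uts2b, again with GGGCGG or TATAAA in capitals.
Syn2, chr6:115134652-115134901, plus strand: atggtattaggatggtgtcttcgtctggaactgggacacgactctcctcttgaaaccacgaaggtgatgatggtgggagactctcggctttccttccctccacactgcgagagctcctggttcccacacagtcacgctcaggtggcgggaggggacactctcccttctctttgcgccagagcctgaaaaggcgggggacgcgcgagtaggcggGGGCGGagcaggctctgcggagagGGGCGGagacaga
Syp, chrX:7638330-7638579, plus strand: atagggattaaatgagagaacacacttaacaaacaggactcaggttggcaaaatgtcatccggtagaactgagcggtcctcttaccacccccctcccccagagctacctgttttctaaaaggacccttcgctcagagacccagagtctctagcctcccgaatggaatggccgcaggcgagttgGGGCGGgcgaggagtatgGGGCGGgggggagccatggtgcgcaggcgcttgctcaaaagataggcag
The Syn2 window holds 61.2% G and C with 16 CpG dinucleotides, and the Syp window 56.4% with 11. Each has 2 GGGCGG matches, a motif present in 32.7% of all windows, and no TATAAA. A second annotated Syn2 start has a window of 50.4% G and C with no match to either motif. The Maoa window, at 56.8%, has 1 GGGCGG match. The 3 annotated B3galt5 windows range from 45.2% to 67.2% and have no match to either motif. CACGTG, an E-box, was also searched and occurs in 1 of these windows, that of the second B3galt5 start, beside 6.02% of all windows. The cyclic AMP response element TGACGTCA, found in 1.55% of all windows, occurs in none of them. The 7 genes thus share a direction by choice, but those with windows do not share one promoter composition.

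Other synaptic vesicle genes were called in both directions, and each of those differences was smaller than that of Syn2. Of 30 tested, 7 were called higher, 6 lower and 17 neither by limma, with a median log2 difference of 0.11 beside 0.02 over all tested genes. The share called higher was 23.3%, beside 12.0% of all tested genes. The number higher was 3 without KO replicate 1, 2 or 3 and 4 without WT replicate 2 or 3. Calls over all tested genes also became fewer when an array was left out, and the cause of the smaller number was not tested. Snap91, a clathrin assembly protein of vesicle recycling, was the largest at 9.80, 9.61 and 9.50 in KO, against 8.85, 8.86 and 8.94 in WT. All KO arrays were above all WT arrays, and the difference was 0.75 (SE 0.09, limma adjusted p = 0.00013).

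Syn3, a synapsin paralogue, was higher by 0.41 (SE 0.11, limma adjusted p = 0.019), with a KO array at 6.52 close to the WT values of 6.37, 6.41 and 6.34. The call did not hold when KO replicate 2 was left out (0.35, limma adjusted p = 0.071), nor when KO replicate 3 was (0.33, limma adjusted p = 0.085). Syn1 was not called at 0.03. Among the relatives of Syp, Syngr1 was higher by 0.28, Sypl fell by 0.32, Syngr2 and Syngr3 were not called at 0.15 and 0.17, and Synpr was too dim to test. Cplx1, a complexin that clamps vesicle fusion, fell by 0.68 (SE 0.12, limma adjusted p = 0.0014), and the synaptotagmins Syt4 and Syt7 by 0.65 and 0.43. Every KO array of Syt4 lay below the filter.

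Of 21 tested markers of neurons, 2 were called higher and 6 lower by limma, and 13 did not pass, with a median of -0.05. The share called higher was 9.52%, near the 12.0% of all tested genes, while the 6 called lower stand beside 14.1% of all tested genes. The largest falls on the list were those of Nefl, Prph, Nefh and Nefm, which encode intermediate filaments of neurons. Nefl, the neurofilament light chain gene, measured 6.41, 6.08 and 5.84 in KO, against 8.22, 8.04 and 7.86 in WT. Its groups lay far apart, with a difference of -1.93 (SE 0.14, limma adjusted p = 1.9e-06). Peripherin (Prph) fell by 1.30, Nefh by 1.10 and Nefm by 0.95. Ina, another gene of this kind, was not called at -0.25 (limma adjusted p = 0.053).

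Of the 2 markers called higher, Stmn3, a microtubule regulator, was up by 0.45 (SE 0.10, limma adjusted p = 0.0062). The calcium sensor gene of vesicle release, Syt1, was up by 0.25 (SE 0.08, limma adjusted p = 0.042), and its call was lost in 7 alternatives, so the number higher was 1 without KO replicate 1 or 3 or WT replicate 1 or 2. Of the 25 markers measured, Tubb3, Elavl2, Elavl4 and Dcx were too dim to test. Rbfox3, Map2, Elavl3 and Mapt, also widely used to mark neurons, were tested and not called, at -0.09, -0.28, 0.06 and 0.12. The word neuronal thus describes what Syn2 and Syp are known for, and not a direction that most neuron markers took.

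In the neuroendocrine list 3 of 13 tested genes were called higher and 4 lower, with a median of -0.09. The share higher was 23.1%, beside 12.0% of all tested genes. The 4 called lower, a larger share of the list, stand beside 14.1% of all tested genes. The secretory granule genes Resp18 and Ptprn2 were higher by 0.46 and 0.45 (limma adjusted p = 0.0024 and 0.0053), and Insm1, a transcription factor of endocrine cells, by 0.40. The LIM homeobox gene Isl1 fell by 0.42 (limma adjusted p = 0.0024) and Scg2, a granin, by 0.58 with overlapping groups and a call lost in 4 alternatives. The number lower was 2 without KO replicate 1, KO replicate 3 or WT replicate 3.

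**Figure D3:**
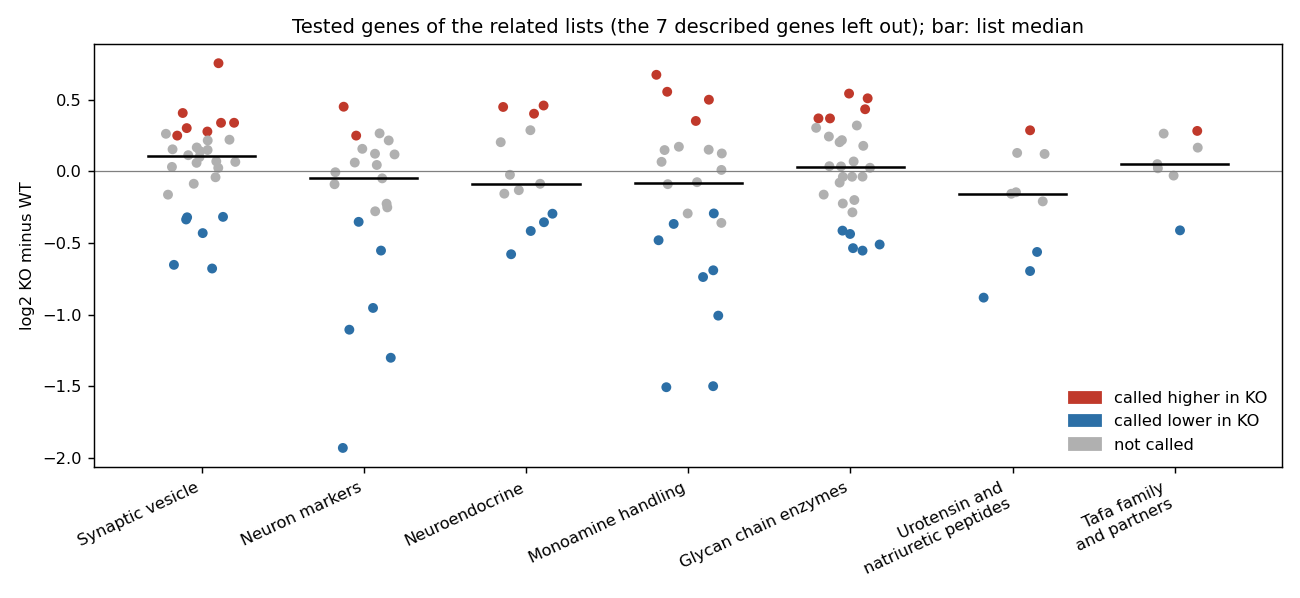
Log2 KO minus WT (y axis) for each tested gene of 7 lists related to the described genes, which are left out, with genes called higher in red, called lower in blue and not called in grey, and the list median as a bar. Every list holds calls in both directions, and the medians lie between -0.16 and 0.11.

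Maoa, on the X chromosome, encodes the mitochondrial enzyme that oxidises serotonin and noradrenaline. It measured 9.51, 9.47 and 9.52 in KO, against 8.10, 8.24 and 8.29 in WT. The KO arrays were the tightest of any of the 7 genes. The means of 9.50 ± 0.03 in KO and 8.21 ± 0.10 in WT (SD, n = 3 each) were 2.44-fold apart.

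Maob, its paralogue and the next measured gene on one side, went the other way. It measured 5.34, 5.44 and 5.63 in KO, against 6.50, 5.99 and 6.93 in WT, a difference of -1.01 (SE 0.19, limma adjusted p = 0.0022). All KO arrays were below the filter and the WT arrays spread widely, so the gene was tested through WT and its fold is limited by background. Maoa and Maob thus had opposite signs in the same 6 mice.

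Genes of amine synthesis, transport and breakdown were called higher in 4 of 22 tested and lower in 8, with a median of -0.08. Over all tested genes 12.0% were called higher and 14.1% lower. Enzymes of amine synthesis were called in both directions. Th, which catalyses the rate-limiting step of dopamine and noradrenaline synthesis, fell by 0.69 (SE 0.10, limma adjusted p = 0.00062). Aoc1, the diamine oxidase that degrades histamine, was higher by 0.67 (SE 0.09, limma adjusted p = 0.00029), and Hdc, which makes histamine, by 0.50 (SE 0.08, limma adjusted p = 0.00068). Ddc, which makes serotonin and dopamine, was higher by 0.56 and Pts, of cofactor synthesis for amine hydroxylases, by 0.35. The call of Pts was lost without KO replicate 1 or 3.

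The tested transporter genes were called lower or not called. Slc18a2, the vesicular monoamine transporter, measured 6.05, 5.86 and 5.58 in KO, against 7.44, 7.32 and 7.25 in WT. Its groups did not overlap, and it fell by 1.51 (SE 0.12, limma adjusted p = 3.5e-06). Slc18a1, the related vesicular transporter, fell by 0.48 and the dopamine transporter gene Slc6a3 by 0.29, and the serotonin transporter gene Slc6a4 was not called at 0.07. Aldh1a1, an aldehyde dehydrogenase, fell by 1.50 and Sult1a1, a sulfotransferase of phenols and amines, by 0.74. Every KO array of Aldh1a1 lay below the filter.

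B3galt5 encodes a galactosyltransferase that caps glycan chains with galactose. It measured 9.49, 9.34 and 9.31 in KO, against 7.56, 7.44 and 7.77 in WT. The lowest KO array was 1.54 above the highest WT array. The means of 9.38 ± 0.10 in KO and 7.59 ± 0.17 in WT (SD, n = 3 each) were 3.44-fold apart.

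Its relatives differed by far less or were too dim. B3galt4 was higher by 0.37 (SE 0.10, limma adjusted p = 0.023) but was not called when KO replicate 2, KO replicate 3 or WT replicate 3 was left out (limma adjusted p = 0.083, 0.052 and 0.065). B3galt1, B3galt2 and B3galt6 lay below the filter in most arrays and were not tested. Of 28 tested enzymes that build or cap glycan chains, 5 were called higher and 5 lower, with a median of 0.03. The share was 17.9% in each direction, beside 12.0% higher and 14.1% lower over all tested genes. The number higher was 3 without KO replicate 2 or WT replicate 3. Gcnt1, which branches O-linked glycans, was higher by 0.54, the sialyltransferase gene St3gal3 by 0.51 and B3gnt2, which extends chains, by 0.43. B4galt1, which also transfers galactose, fell by 0.55 (SE 0.09, limma adjusted p = 0.00087), and Gcnt2 fell by 0.54.

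By position the 7 genes lie on 3 chromosomes: Tafa1 and Syn2 on 6, Uts2b, Ostn and B3galt5 on 16, and Syp and Maoa on X. Ostn and Uts2b are next to each other, with 0 protein-coding genes between them in the RefSeq order. The nearest genes on each side of this pair differed in direction, and calls further out were mixed on the Uts2b side. On the Uts2b side, the nearest measured gene, Ccdc50, was higher by 0.43 (SE 0.10, limma adjusted p = 0.0067), with means of 10.47 ± 0.14 in KO and 10.04 ± 0.09 in WT (SD, n = 3 each), and Mb21d2, the next tested, by 0.42. Further out on that side Atp13a4 and Hes1 were called lower, by 0.33 and 0.46, and the call of Atp13a4 was lost in 6 alternatives. On the Ostn side, Gmnc, a regulator of multiciliated cells, measured 5.07, 5.22 and 4.93 in KO, against 6.77, 6.82 and 6.49 in WT. It fell by 1.62 (SE 0.11, limma adjusted p = 1.1e-06), and its KO arrays were all below the filter. Beyond Gmnc, the interleukin receptor subunit gene Il1rap fell by 0.55 and Cldn1 by 0.39. The remaining tested neighbours on the Ostn side were not called, at 0.29 and 0.14. The pair of higher genes thus stood directly beside a gene called lower.

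**Figure D4:**
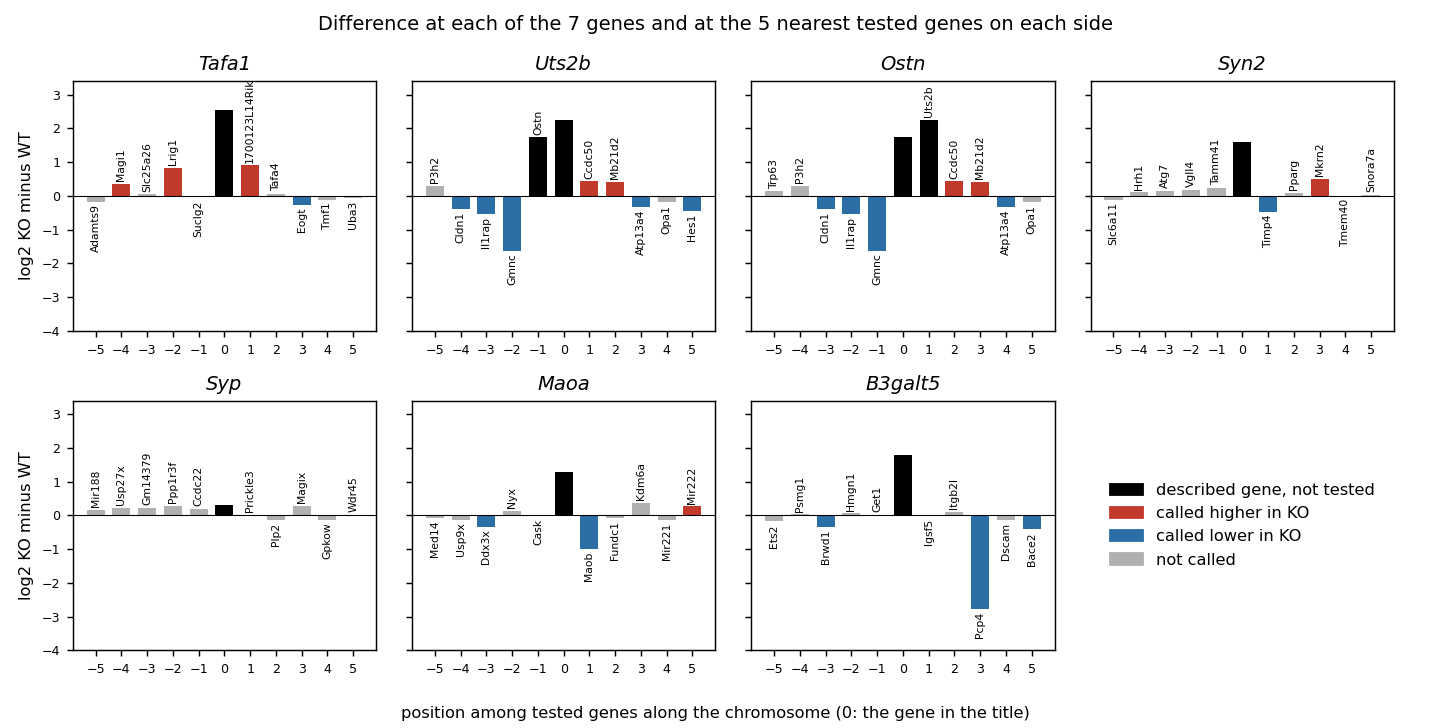
Log2 KO minus WT (y axis) of each of the 7 genes (black, position 0) and of the 5 nearest tested genes on each side in chromosome order (x axis), with genes called higher in red, lower in blue and not called in grey. Ostn and Uts2b stand side by side with Gmnc below 0 beside them, Maob lies below 0 next to Maoa, and Pcp4 lies lowest of all near B3galt5.

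Over the 60 different tested neighbours, 7 were called higher and 12 lower by limma, which is 11.7% and 20%, beside 12.0% and 14.1% of all tested genes. Their median difference was 0.01. Near Tafa1, 3 of 10 were called higher and 1 lower. The growth factor signalling inhibitor gene Lrig1 was higher by 0.83 (SE 0.08, limma adjusted p = 1.4e-05). 1700123L14Rik, which lies inside the span of Tafa1, was higher by 0.90 (SE 0.11, limma adjusted p = 0.00012), and all its WT arrays were below the filter. Suclg2, the nearest measured gene on the other side, was not called at -0.05.

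Timp4, a metalloprotease inhibitor gene inside the span of Syn2, fell by 0.47 (SE 0.13, limma adjusted p = 0.018), opposite in sign to its host gene, but was not called when KO replicate 2 or 3 was left out (limma adjusted p = 0.073 and 0.052). Mkrn2, further along, was higher by 0.51. Around Syp 0 of 10 neighbours were called in either direction by limma, and 4 were higher and 0 lower at an unadjusted p under 0.05. Their median difference was 0.18, beside 0.30 for Syp. Among the 10 neighbours of B3galt5, 0 were called higher by limma (0 also at an unadjusted p under 0.05) and 3 lower. Pcp4, a Purkinje cell protein gene, fell by 2.78 (SE 0.14, limma adjusted p = 1.2e-07), and the gene next to B3galt5, Igsf5, was not called at -0.01.

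For the X-linked genes Syp and Maoa the X chromosome gives context. Of 377 tested X-linked genes 9.28% were called higher and 19.4% lower, with a median of -0.03. Xist, the RNA that silences an X chromosome in females, was lower by 0.52, with 10.73 ± 0.06 in KO and 11.25 ± 0.15 in WT (SD, n = 3 each, limma adjusted p = 0.002). The Y-linked genes Eif2s3y, Kdm5d and Uty were too dim to test. The part of Xist in the values of Syp and Maoa was not tested.

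Across the mice, KO replicate 1 gave the highest KO value for 4 of the 7 genes and the lowest for 0, while KO replicate 3 gave the lowest for 5. In WT, replicate 3 gave the highest value for 4 and the lowest for 3. The tested genes whose profile over the 6 arrays was most like the mean profile of the 7 were Tmem176a, Hdc, Igsf8, Ccdc33 and Chrnb2, by Pearson r. That r was 0.9997 for Tmem176a and 0.9975 for Chrnb2, and it mostly restates the separation of the groups, since 83 tested genes exceeded 0.99. Chrnb2, a nicotinic receptor subunit gene of neurons, measured 8.13, 8.08 and 7.89 in KO, against 6.69, 6.73 and 6.64 in WT. Its difference was 1.34, while that of Tmem176a was 0.16, so a like profile did not mean a like size.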

How the data were processed

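For the 6 arrays the authors deposited linear probe set intensities, which the submitters' processing notes credit to RMA. Its version is not given in the sources used here, nor is a genome build. RMA forces the arrays to a common distribution, so changes in total RNA are hidden, and background compresses folds of dim genes.

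Of 35512 probe sets, 21789 had 1 gene symbol, 1621 several and 12102 none, and those with several were left unnamed. Values were put on the log2 scale with no pseudocount. Each gene took its 1-symbol probe set of highest mean. Genes above the 40th percentile (5.97) in at least 3 arrays were tested, 13925 of 19938, and all 7 described genes passed on all arrays. The test was limma 3.58.1 (lmFit, eBayes; R 4.3.3), two-sided. Calls needed a Benjamini-Hochberg adjusted p under 0.05. It was checked on simulated data. Labels give no batch. Where sentences give an SE, it comes from this fit.

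Gene order came from RefSeq GRCm38.p6. No strand or build is stated for the array, so genes that overlap another are uncertain. The described genes and the lists were chosen with earlier results of these data known. Named genes were the 7 genes, Aire, their paralogues, up to 4 called genes per list and direction, called or nearest neighbours, and the 5 most similar profiles. Other list genes were named after their values were seen.

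Alternatives were the filter (none, or the 60th percentile), quantile normalization again, median centring, an offset of 32, the mean of probe sets, trended robust variances, array weights, a block for the replicate number, and each array left out. Figures used matplotlib 3.10.9.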

Additional observations from a re-analysis of the deposited data

How the results depend on the processing

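Over the 15 alternatives the differences of the 7 described genes were 2.37 to 2.60 for Tafa1, 1.92 to 2.34 for Uts2b, 1.61 to 1.78 for Ostn, 1.53 to 1.73 for Syn2, 0.23 to 0.34 for Syp, 1.20 to 1.33 for Maoa and 1.63 to 1.87 for B3galt5, with the lowest for Tafa1, Uts2b, Maoa and B3galt5 under the offset of 32. The sign was largely fixed in advance, since the genes were chosen for it. Every KO array lay above every WT array, so leaving out 1 array could not reverse it. A changed filter, another variance estimate or the mean of probe sets does not alter these differences. With the 60th percentile filter, which tests fewer genes, counts were 4 higher and 3 lower for synaptic vesicles, 1 and 3 for neuron markers, 3 lower for amine handling, 6 lower for neighbours, 0 and 0 for the Tafa list and 0 higher for the urotensin list. The 1 higher gene of the Tafa list became 0 with no filter, trended variances or the replicate block. That of the urotensin list became 0 with the offset of 32, trended variances or the replicate block. Neuron markers higher were 1 with no filter, the mean of probe sets or the replicate block, against 2. The cause of these losses was not tested. Without 1 array, genes called higher in KO numbered 1052 to 1547 over all genes tested, and higher counts were 0 to 1 for the Tafa and urotensin lists, 3 to 5 for synaptic vesicles, 3 to 5 for glycan enzymes and 1 to 2 for neuron markers. Neuroendocrine genes lower were 2 to 4. The replicate numbers pair nothing that the labels state, and same-numbered arrays correlated at -0.02, -0.21 and -0.06 in their deviations. With the replicate block, genes called higher in KO numbered 1368 and genes called lower in KO 1742, against 1676 and 1963. Of 91 named genes called, 64 kept the call in each alternative that tested them. Signal near background limits Uts2b in WT and Maob and Gmnc in KO.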
